A study of Mus musculus with 4 samples.

Results

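The 10 genes described here, which act where DNA replication stalls, were compared in erythroblasts of wild type and Parp2-deficient mice. They were chosen by function: the fork remodelling ATPases Smarcal1, Zranb3 and Hltf, the RecQ helicases Blm, Wrn and Recql4, the endonuclease subunits Mus81 and Eme1, and the fork protection complex of Timeless and Tipin. Each of the 10 had 1 probe set annotated to it alone, among 19938 genes so represented on the array. The cells were Ter119+CD71+ bone marrow cells, nucleated red cell precursors sorted by an erythroid surface antigen and the transferrin receptor. There were 2 arrays from mice labelled Parp-2-/- and 2 from mice labelled WT, all on a C57BL/6 background. Parp2 encodes a poly(ADP-ribose) polymerase that is activated at DNA breaks. No age, sex or treatment was given, and no label says whether the arrays of a genotype came from separate animals, so the spread behind each p-value is that of these samples and may be technical.

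When a replicative polymerase stops at a lesion, the nascent strands can be unwound from their templates and annealed to each other, which turns the fork into a branched junction. SNF2-family ATPases drive this reversal. RecQ helicases unwind or migrate the resulting structures, and structure-selective nucleases cut those that persist. The fork protection complex travels with the replisome, couples the helicase to the polymerases and helps to pass the stall signal to the checkpoint kinase CHK1. Erythroblasts divide rapidly while they differentiate, and the series title names replicative stress in erythroid progenitors, the question on which these genes bear.

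Values are normalised log2 expression, so a difference of 1 is a factor of 2. The array medians over 23410 annotated probe sets ranged from 5.23 to 5.49, and values were least spread on knockout replicate 2, whose interquartile range of 1.98 compares with 2.62 to 2.94 elsewhere. The targeted gene read lower in the knockout, the direction the labels call for: Parp2 was at 8.24 and 7.65 on the wild type arrays and at 7.11 and 6.70 on the knockout arrays, a difference of -1.04 ± 0.40 (SE, n = 2 per group), with a limma adjusted p of 0.9999 over all probe sets. Where the deletion lies relative to this probe set was not analysed here. The transferrin receptor gene Tfrc, which encodes the sorting antigen CD71, lay between 10.35 and 11.43 on the 4 arrays.

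No member differed between the genotypes past the test. Limma with Benjamini-Hochberg adjustment called 0 of the 10 members, and 0% of the 23410 probe sets, at an adjusted p under 0.05. Without adjustment, 0 members had a p under 0.05, against 2.08% of all probe sets. The count was 1 with the replicate number as a block (Smarcal1, limma adjusted p = 0.598) and 1 without knockout replicate 1 (Hltf, limma adjusted p = 0.567). The adjusted p was 0.9999 for each member, and the lowest unadjusted limma p was 0.101, for Smarcal1. The mean was lower in the knockout for 6 members and higher for 4, where 43.6% of all probe sets had a lower mean. The median difference over the members was -0.16, beside +0.08 over all genes. It was -0.24 with 8 members lower after median centring and -0.0008 with 5 lower after repeated quantile normalisation. Leaving out knockout replicate 2 turned that median to +0.26 with 3 members lower, and leaving out knockout replicate 1 took it to -0.63 with 9 lower. The share and median over all probe sets and genes include dim ones, whereas all 10 members were brighter than the median probe set. A genotype difference over the brighter probe sets alone is not given here.

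The values of the 2 genotypes did not overlap for 3 members, Smarcal1 and Hltf below wild type and Mus81 above it. Among all probe sets 25% did not overlap, 9.42% with the knockout lower and 15.6% with it higher, so 3 of 10 is a share close to the background. After each array was centred on its median only Hltf was without overlap. After repeated quantile normalisation 4 members were, Smarcal1, Hltf and Timeless with the knockout lower and Recql4 with it higher. The RefSeq promoter windows of these 3 genes are shown because these genes separated the genotypes in the values as deposited. Each window covers 250 bases before to 50 bases after an annotated start, on the gene's strand, build GRCm38.p6. That of Smarcal1 is chr1:72583001-72583300 (plus strand), that of Hltf chr3:20057561-20057860 (plus strand), the first of the 2 listed for that gene, and that of Mus81 chr19:5488330-5488629 (minus strand). Capitals mark the letters TTTGAA, the cell cycle genes homology region (CHR) through which the DREAM complex binds cell cycle genes, and CCAAT, the box bound by NF-Y, on either strand.
Smarcal1: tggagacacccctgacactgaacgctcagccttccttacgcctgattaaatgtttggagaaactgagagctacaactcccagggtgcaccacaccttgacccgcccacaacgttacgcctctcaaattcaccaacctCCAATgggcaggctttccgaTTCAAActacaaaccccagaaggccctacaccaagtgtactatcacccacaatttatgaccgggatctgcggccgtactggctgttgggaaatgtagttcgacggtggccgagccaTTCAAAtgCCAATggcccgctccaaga
Hltf: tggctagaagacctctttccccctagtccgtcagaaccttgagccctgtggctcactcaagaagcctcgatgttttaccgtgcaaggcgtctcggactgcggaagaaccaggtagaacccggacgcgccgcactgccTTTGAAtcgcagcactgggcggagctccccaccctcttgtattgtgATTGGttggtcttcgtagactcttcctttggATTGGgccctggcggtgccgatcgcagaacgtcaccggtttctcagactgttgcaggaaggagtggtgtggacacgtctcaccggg
Mus81: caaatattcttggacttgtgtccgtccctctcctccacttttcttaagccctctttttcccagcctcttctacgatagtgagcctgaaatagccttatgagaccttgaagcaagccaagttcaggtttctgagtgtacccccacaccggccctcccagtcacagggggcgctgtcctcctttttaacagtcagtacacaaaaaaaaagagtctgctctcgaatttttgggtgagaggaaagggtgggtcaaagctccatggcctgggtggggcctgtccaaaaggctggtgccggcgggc
The windows of Smarcal1 and Hltf hold both motifs, and that of Mus81 holds neither. The second window of Hltf holds CCAAT alone, and a window of Zranb3, for which the genotype means differed by +0.01, holds both. That of Timeless, with a difference of -0.54, holds neither. In all, 7 of the 10 members had a window in the table, 9 windows together. TTTGAA or its reverse complement stood in 5 of the 9 windows (4 members) and in 17.9% of all 32851 windows. CCAAT or its reverse complement stood in 5 of the 9 (4 members) and in 37.4% of all. The E2F letters TTTCCCGC, TTTGGCGC, TTTCGCGC and TTTGCCGC were in 0 member windows and in 2.26% of all. No 2 of these motifs overlap in the member windows. A match of letters describes the sequence only.

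Among the fork remodelling ATPases, Smarcal1 had the largest difference of the 10 members. Smarcal1 encodes an annealing helicase that is brought to stalled forks by the single-strand binding protein RPA. It read 7.62 and 6.67 on wild type replicates 1 and 2 and 6.60 and 5.90 on knockout replicates 1 and 2. Wild type replicate 1 was well above the others, and wild type replicate 2 lay only just above knockout replicate 1. The difference was -0.90 ± 0.47 (SE, n = 2 per group), a 1.86-fold lower mean, with a 95% limma interval from -2.02 to +0.23. Leaving out wild type replicate 1 gave -0.42, and leaving out wild type replicate 2 gave -1.37.

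Hltf encodes an ATPase that reverses forks and is also a ubiquitin ligase for PCNA, the sliding clamp. Its values were 5.74 and 5.81 in wild type and 5.66 and 4.73 in the knockout. Wild type replicates and knockout replicate 1 lay together, and knockout replicate 2 alone was low. The difference of -0.58 ± 0.43 was -0.11 without knockout replicate 2. Zranb3 encodes an annealing helicase that binds polyubiquitinated PCNA. It read 7.03 and 7.38 in wild type and 7.45 and 6.97 in the knockout, so that the genotypes overlapped, with a difference of +0.01 ± 0.38. The 95% interval for Zranb3, from -0.91 to +0.92, still allows differences in either direction of close to a factor of 2.

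**Figure D1:**
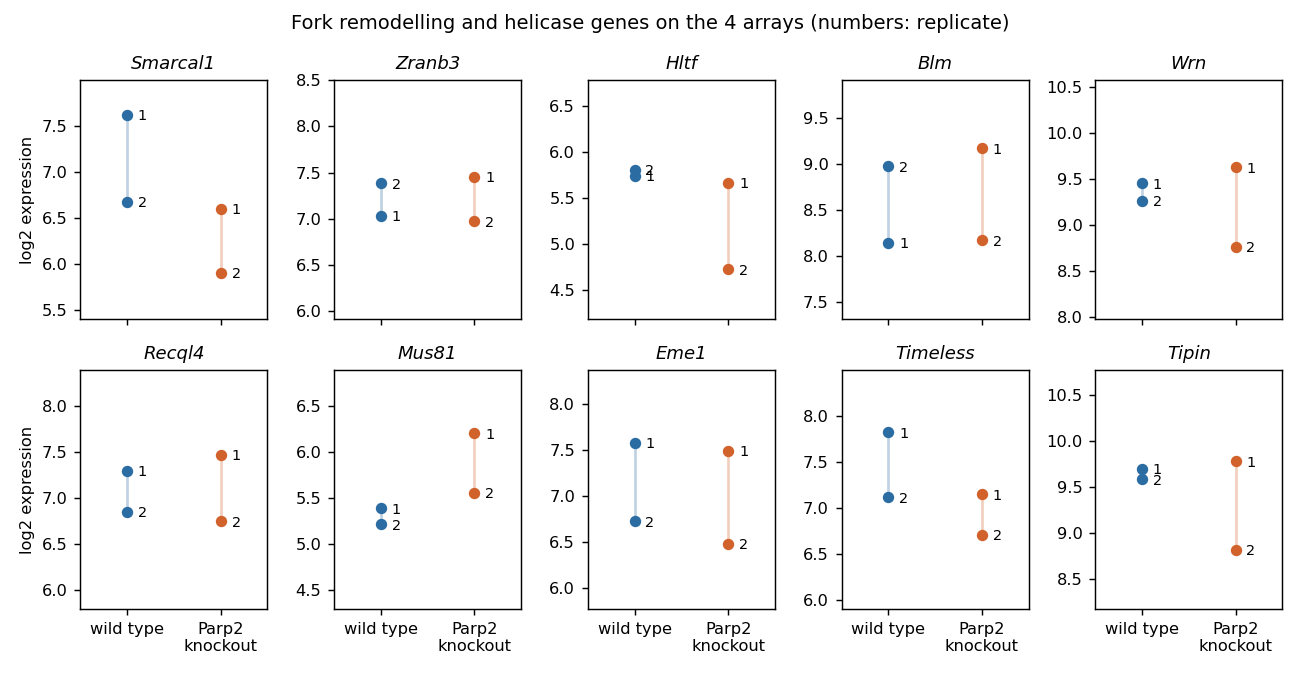
Log2 expression of each of the 10 genes (vertical axis, the same span in every panel) on the wild type and Parp2 knockout arrays, with points numbered by replicate and a line joining the replicates of a genotype. Knockout replicate 2 lies below knockout replicate 1 in all 10 panels, and the genotypes are apart only for Smarcal1, Hltf and Mus81 in these values as deposited.

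The RecQ helicases overlapped between the genotypes. Blm encodes the helicase that, with topoisomerase III alpha and the RMI proteins, separates linked Holliday junctions without crossing over. It read 8.15 and 8.97 in wild type and 9.17 and 8.17 in the knockout. Each genotype thus held a high and a low array, and the difference was +0.11 ± 0.50, with a 95% interval from -1.07 to +1.29. Wrn, which encodes the RecQ helicase that also carries an exonuclease, read 9.45 and 9.26 in wild type and 9.62 and 8.76 in the knockout, a difference of -0.16 ± 0.42. Recql4, a RecQ helicase gene also needed for the start of replication, read 7.30 and 6.85 in wild type and 7.47 and 6.75 in the knockout, a difference of +0.04 ± 0.42. For Wrn and Recql4 alike, knockout replicate 1 was the highest of the 4 arrays and knockout replicate 2 the lowest.

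The subunits of the MUS81-EME1 endonuclease, which cuts stalled forks and branched intermediates, did not share a direction. Mus81, the catalytic subunit, read 5.39 and 5.21 in wild type and 6.20 and 5.56 in the knockout. Both knockout arrays were above both wild type arrays, and the difference was +0.58 ± 0.39, a 1.49-fold higher mean with a 95% interval from -0.36 to +1.51. Eme1, the non-catalytic partner, read 7.58 and 6.72 in wild type and 7.49 and 6.48 in the knockout. Replicate 1 was the higher array in each genotype, and the difference of -0.16 ± 0.50 was smaller than the gap between replicates. Mus81 and Hltf read close to the array medians, where RMA values are compressed, so that their differences may be understated. With no detection calls given, how much of their signal is background is not known.

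The fork protection complex had lower means in the knockout for both of its genes. Timeless read 7.82 and 7.11 in wild type and 7.15 and 6.71 in the knockout. Wild type replicate 1 was highest, knockout replicate 2 lowest, and the other arrays were almost level. The difference was -0.54 ± 0.42, a 1.45-fold lower mean, with a 95% interval from -1.53 to +0.45. Tipin, the partner that stabilises TIMELESS and binds RPA, read 9.70 and 9.59 in wild type and 9.78 and 8.82 in the knockout. The other arrays lay close together and knockout replicate 2 was low, and the difference of -0.34 ± 0.44 turned to +0.14 without that array.

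**Figure D2:**
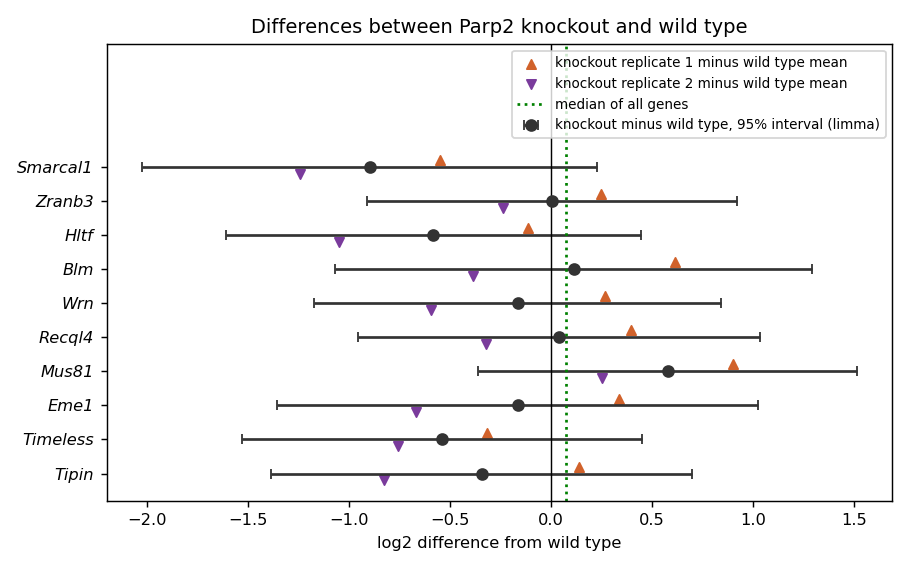
Log2 difference between Parp2 knockout and wild type for each of the 10 genes (black points, bars the 95% limma interval, n = 2 per group), with each knockout array set against the wild type mean (triangles) and the median of all genes (dotted line, +0.08). All 10 intervals include 0, and the 2 knockout arrays fall on opposite sides of 0 for Zranb3, Blm, Wrn, Recql4, Eme1 and Tipin.

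For 8 of the 10 members the gap between the knockout arrays was wider than that between the genotype means, Smarcal1 and Timeless being the exceptions. All 10 read lower on knockout replicate 2 than on knockout replicate 1, by 0.44 (Timeless) to 1.01 (Eme1) on the log2 scale, with a median of -0.79. Over all genes the median of this difference was +0.21. Of all probe sets 39.9% read lower on knockout replicate 2, and of those brighter than the median 64.2% did. After repeated quantile normalisation 8 members remained lower on that array, beside 46.2% of all probe sets, with a member median of -0.40, and Zranb3 and Timeless then read higher by 0.18 and 0.14. After median centring all 10 were lower, with a median of -1.06, but so were 54.7% of all probe sets, with a median of -0.07. The shares after rescaling include dim probe sets. Shares over the brighter ones alone are not given here for rescaled values. Between the wild type arrays 7 members read lower on replicate 2, with a median of -0.18, beside 53.8% of all probe sets. Blm, Zranb3 and Hltf went the other way there, by +0.83, +0.35 and +0.067. Other fork pathway genes read lower on knockout replicate 2 as well, 30 of 42 of them with a median of -0.45, among them 9 of 9 nucleases (median -0.56) and 3 of 3 RPA genes (median -1.07). These are differences between single arrays and have no test.

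**Figure D3:**
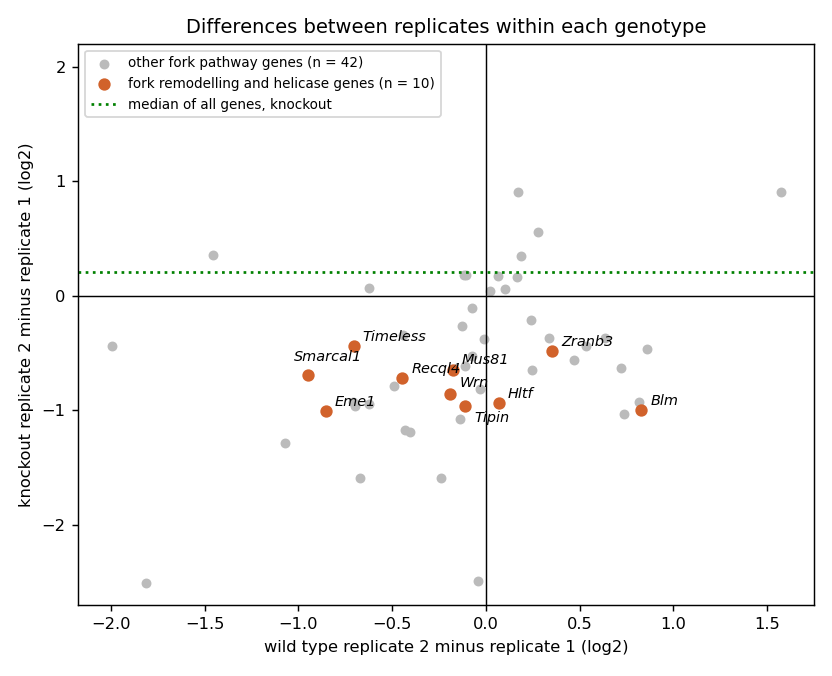
Difference between replicates 2 and 1 (log2) within wild type (horizontal axis) and within the Parp2 knockout (vertical axis) for the 10 genes (orange) and 42 other fork pathway genes (grey), with the median of all genes in the knockout dotted (+0.21). The 10 genes all lie below 0 on the vertical axis and spread to both sides of 0 on the horizontal axis.

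The members were also compared with each other after each gene was centred on its own mean over the 4 arrays. Likeness was measured as the root mean square distance between 2 genes over the 4 arrays, in log2 units, as a description. Every gene has a nearest member by this measure, and distances among other genes of the array are not given here. Wrn and Tipin were nearest to each other, at 0.10, and Hltf was nearest to Tipin, at 0.14, which are genes with a low value on knockout replicate 2. Recql4 was nearest to Wrn, at 0.15. Smarcal1 and Timeless were nearest to each other, at 0.22, both with a high value on wild type replicate 1. Blm and Smarcal1 were the farthest apart, at 0.81. Mus81 was nearest to Recql4, at 0.29, a greater distance than any other member had to its nearest. Eme1 lay nearer to Recql4, at 0.20, than to Mus81, with which it forms its enzyme.

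Other genes of the pathway were read from lists made with earlier results of these data known. Of 46 listed genes 42 had a probe set of their own, and limma called 0 of them, with 0 at an unadjusted p under 0.05. Of the 42, 29 had a lower mean in the knockout and 13 a higher mean, and the median difference was -0.13. Of all probe sets 43.6% had a lower mean, and the median over all genes was +0.08, dim ones included in each. The groups did not overlap for 9 of the 42, 5 lower and 4 higher, again beside 25% of all probe sets. The others were not analysed here.

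The partners that load or work with the members overlapped between the genotypes in most cases. The RPA subunits, which coat exposed single strands and recruit SMARCAL1, differed by +0.27 (Rpa1), -0.11 (Rpa2) and -0.14 (Rpa3), and all 3 overlapped. Rpa3 read 8.20 and 8.16 in wild type and 9.29 and 6.80 in the knockout, so that its knockout arrays were the highest and the lowest of the 4. The partners of BLM in junction separation differed by -0.08 (Top3a), -0.31 (Rmi1) and +0.06 (Rmi2). The other RecQ genes Recql and Recql5 differed by -0.33 and -0.35. Slx4, the scaffold that binds MUS81-EME1, differed by +0.48 ± 0.48, with 6.47 and 7.29 in wild type and 7.83 and 6.90 in the knockout.

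All 6 fork protection and replisome partners had a lower mean in the knockout, with a median of -0.30, and 3 were without overlap. Over all probe sets 43.6% had a lower mean and 9.42% were lower without overlap; limma called 0 of the 6. Clspn, the adaptor for CHK1 activation that works with TIMELESS and TIPIN, read 9.31 and 9.48 in wild type and 9.15 and 9.31 in the knockout. Its lower wild type value, 9.3141, and its higher knockout value, 9.3137, were almost level, so its count as without overlap rests on a very small margin. The difference for Clspn was -0.17 ± 0.35. Donson, a replisome component, read 8.33 and 8.61 in wild type and 7.59 and 8.14 in the knockout, a difference of -0.61 ± 0.39. Mms22l, which with TONSL acts in the recovery of stalled forks, differed by -0.43 ± 0.35. For Clspn, Donson and Mms22l, knockout replicate 1 was the lowest array, and for Wdhd1, Ddx11 and Tonsl knockout replicate 2 was.

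The remaining groups went both ways. Among 5 other fork helicases 4 had a lower mean, Brip1 at -0.60 and Fbh1 at -0.40 having the lowest p. Of 9 fork and junction nucleases 6 had a lower mean. Ercc4, the catalytic subunit of the XPF-ERCC1 nuclease, differed by -1.01 ± 0.66, the largest lower value of the pathway, but its wild type replicates read 7.01 and 5.01. Fan1, a nuclease of crosslink repair, read 4.66 and 4.58 in wild type and 5.32 and 5.22 in the knockout, a difference of +0.65 ± 0.35 (limma unadjusted p = 0.107, adjusted p = 0.9999). Its groups did not overlap, and its replicates lay within 0.11 of each other, close to or below the array medians. Of 9 recombination and fork protection factors 5 had a lower mean and 4 a higher mean, with a median of -0.0033; Bard1 was at -0.48. Of the damage tolerance partners of HLTF, Rad18 differed by +0.22 without overlap and Shprh by -0.42.

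**Figure D4:**
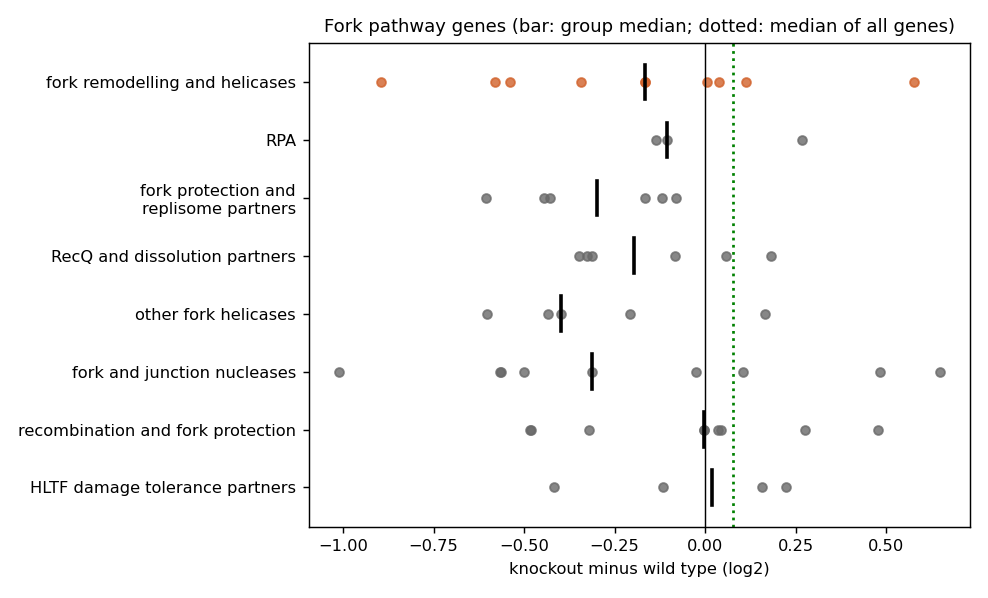
Log2 difference between Parp2 knockout and wild type (n = 2 per group) for the 10 genes (orange) and for 42 other fork pathway genes (grey) by group, each point 1 gene, with the group median (bar) and the median of all genes (dotted line, +0.08). All groups except the damage tolerance partners of HLTF have a median below 0, and no gene passed the limma test.

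Markers of other blood cells were read beside these genes, and limma called 0 of them (adjusted p = 0.9999 for each). Without adjustment, 5 of 10 neutrophil and 5 of 7 B cell markers had a limma p under 0.05. So did 3 of 7 monocyte and macrophage, 2 of 4 T and NK cell and 2 of 5 mast cell and basophil markers. For erythroblast and megakaryocyte markers the counts were 0 of 8 and 0 of 4, and 2.08% of all probe sets had such a p. In bulk samples, fewer cells of a type and less RNA per cell cannot be told apart. All 10 neutrophil markers had a lower mean in the knockout, 9 of them without overlap, beside 43.6% and 9.42% of all probe sets. Their summed linear level was 31692 to 35334 in wild type and 18264 to 22391 in the knockout. It had the same array order as Smarcal1, from wild type replicate 1 to wild type replicate 2, knockout replicate 1 and knockout replicate 2. Parp2 and the summed monocyte and macrophage markers had that order too, and the other members did not. A gene that is lower without overlap has few possible orders. The share of all probe sets with this order is not given here. Summed levels were also lower for 7 B cell markers (1091 to 1534 in wild type, 490 to 608 in the knockout), 7 monocyte and macrophage markers (4668 to 5327, 2574 to 2909) and 5 mast cell and basophil markers (555 to 1024, 274 to 278). For 4 T and NK cell markers the sum was 422 to 894 in wild type and 256 to 303 in the knockout, but without Nkg7 it was 147 to 164 and 100 to 173, which overlap. Single markers went the other way: Cd8a (+0.30, without overlap), Pax5 (+0.44) and Vcam1 (+0.59) had higher means in the knockout. The summed level of 8 erythroblast markers overlapped, at 10518 to 22600 in wild type and 14396 to 20624 in the knockout, and was higher on replicate 2 of each genotype. That of 4 megakaryocyte markers overlapped as well, at 375 to 503 and 283 to 541, with 3 of the 4 higher in the knockout and a median difference of +0.58. The part of these cells in the differences given here was not tested.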

How the data were processed

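RNA from 4 samples (2 per genotype, 100 ng of total RNA each per the labels) was labelled for Affymetrix whole-transcript arrays. The deposited table holds log2 expression values for 35511 probe sets and 4 columns, each named by its sample. The submitters' processing notes name R 3.0.2, RMA and limma without their roles. RMA corrects background, normalises by quantiles and summarises probes on the log2 scale, and it compresses differences of dim probe sets. No detection calls or genome build were given.

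Of the probe sets, 21789 carried 1 symbol in the platform annotation, 1621 several and 12101 none. Genes were read from the probe set naming them alone with the highest mean over the 4 arrays. The genotypes were compared by limma 3.58.1 under R 4.3.3 (two-sided, lmFit and eBayes, 2 arrays a side, genotype the only term) over 23410 probe sets with a symbol; 2 residual and 4.77 prior degrees of freedom entered the fit, which was tested on simulated data. A two-sided exact permutation test of 2 against 2 arrays cannot give a p below 0.333 and was not used. The number of arrays limits the precision. The first number in each title (1 or 2 in wild type, 3 or 4 in the knockout) is unexplained; an order of processing and the genotype cannot be told apart.

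The members and lists were chosen with earlier results of these data known, so they carry no list test. Named are Parp2, all members, the 2 genes of lowest p in each pathway group and the members' direct partners, some of which are not reported here. The alternatives tried were a block on the replicate number, each array left out, median centring, repeated quantile normalisation, trended and robust moderation, brighter probe sets only, array weights, the whole table, and averaging a gene's probe sets. Promoter windows came from RefSeq.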

Additional observations from a re-analysis of the deposited data

How the results depend on the processing

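The count of probe sets past limma's adjusted test (0, with 486 at an unadjusted p under 0.05) was 274 with the replicate number as a block and 8 with trended and robust moderation, and it ranged from 0 to 62 with 1 array left out; no member and no other fork pathway gene was called in any of these settings. The labels do not explain the replicate number, which 2 pairs have in common. Differences between replicates 2 and 1 correlated at 0.468 between the genotypes across probe sets. The replicate block, which leaves 1 residual degree of freedom, changed no call of a member. Under that block every member had the same SE, 0.406, so its p-values rest on 1 common spread and not on each gene's own. The same held without either wild type array, where the SE was 0.737. With 1 array left out, its genotype's remaining array is assumed to vary like the others; the median member difference (-0.16) then ranged from -0.63 to +0.26 and the count of members lower in the knockout (6) from 3 to 9. Smarcal1 (-1.37 to -0.42), Hltf (-1.05 to -0.11), Timeless (-0.89 to -0.18) and Mus81 (+0.26 to +0.90) kept their direction in the 6 alternatives that can change a mean difference (1 array left out, or another scaling), within these ranges; the other 6 leave it as it is. Signs turned with an array left out for Zranb3 (-0.24 to +0.25), Blm (-0.39 to +0.61), Wrn (-0.60 to +0.27), Recql4 (-0.32 to +0.40), Eme1 (-0.67 to +0.34) and Tipin (-0.82 to +0.14). Median centring gave -0.067 for Zranb3 and -0.035 for Recql4, and repeated quantile normalisation gave +0.0074 for Wrn; the cause was not tested. Members without overlap between the genotypes (3) were 1 after median centring and 4 after repeated quantile normalisation, settings chosen for this count after the data were seen.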

Other observations

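Genes of cycling cells were read beside the fork genes, since forks are present in cells that replicate. Of 13 such genes 8 had a lower and 5 a higher mean in the knockout, with a median difference of -0.07. The genotypes overlapped for all 13, limma called 0, and 0 had an unadjusted p under 0.05. Of all probe sets 43.6% had a lower mean, 25% did not overlap, 0% were called and 2.08% had an unadjusted limma p under 0.05. Mki67, a marker of proliferating cells, read 10.64 and 12.03 in wild type and 11.20 and 11.73 in the knockout. Between the knockout arrays 10 of the 13 read lower on replicate 2, with a median of -0.30, against -0.79 for the fork remodelling and helicase genes. Of all probe sets 39.9% read lower there, and of those brighter than the median 64.2% did. Among the MCM helicase genes, knockout replicate 2 minus knockout replicate 1 ran from -0.30 (Mcm2) to -1.32 (Mcm4), with Mcm3 at -1.01. Mki67, Top2a and Ccna2 read higher on knockout replicate 2, by +0.53, +0.10 and +0.07. These genes of cycling cells and the values quoted were chosen for description and have no test.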
